A study of Mus musculus with 15 samples.

Results

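Brain tumors grown from 4 mouse glioma lines were compared with naïve brain, and the genes that changed in the same direction in every line are described here. A gene was counted as shared when its mean level in each of the 4 lines lay above, or in each lay below, all 3 naïve samples, and when the average of the 4 lines, each weighted equally, differed from naïve brain. That difference had to be called, which here means a log2 fold change beyond 1 in size and a p under 0.05 from edgeR's quasi-likelihood test after Benjamini-Hochberg adjustment. Of 17481 genes tested, 5246 met the rule, 2531 of them higher and 2715 lower in the tumors. Calls in the test alone took 17.3% of all tested genes as higher and 19.7% as lower. On the scale of log2(TPM + 1), tested with limma, the split was 909 higher and 3570 lower, and the median of all tested genes was -0.29. The shared genes were 14.5% of all tested genes on the higher side and 15.5% on the lower side. Fold changes and adjusted p-values of shared genes belong to the rule that chose them and are given as a description.

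The series holds 15 RNA samples from C57BL/6 mice, 3 for each of CT2A, GL261, 005, Mut3 and naïve brain. Mice of 6 to 8 weeks received 100000 cells of CT2A, GL261 or 005, or 500000 Mut3 cells, in the right hemisphere, all lines carrying GFP and firefly luciferase per the study's methods, and tumor tissue was taken after perfusion when mice reached humane end-point. CT2A (wild-type p53) and GL261 (mutant p53) were raised with methylcholanthrene, 005 by activated H-ras and AKT in p53+/- mice, and Mut3 by loss of Nf1 and p53. Each line is a single cell line, so the 3 mice of a line are repeated implants of the same cells, and the p-values measure the spread among such implants. The naïve samples are control brain tissue of the same strain, and the labels do not say which brain region was taken. Naïve mice are also recorded at 6 to 8 weeks. For tumor mice this is the age at implantation, and their tissue was taken later. Per the study, CT2A mice reached end stage soonest and Mut3 mice latest, and ages at harvest are not given.

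Total counts ranged from 3105119 to 5161132 in naïve brain and from 5380395 to 13130158 in the tumors, and levels are given as CPM, counts scaled to library size, after edgeR's TMM scaling, for comparison within a gene only. A count of 3 corresponds to between 0.228 and 0.966 CPM in these libraries, a floor that covers counting error only. Transcripts of the mitochondrial genome made up 14.97% to 24.0% of naïve counts and 3.48% to 17.8% of tumor counts. 005 replicate 3 stood apart from the other tumors: shared higher genes took 17.1% of its counts, against 34.6% to 47.9% in the other 11 tumors and 10.7% to 12.4% in naïve brain. Shared lower genes took 34.3% of its counts, against 6.11% to 19.5% in the other tumors and 40.4% to 43.2% in naïve brain. Without it, 2654 genes were shared higher and 3273 shared lower. Naïve replicate 2, the shallowest library, had the largest TMM factor of all (1.30), and without it 2723 genes were shared higher and 2218 shared lower.

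Gliomas of this kind grow as dividing cells that displace and infiltrate brain tissue and draw in macrophages and lymphocytes, so bulk RNA from a tumor mixes the implanted cells, infiltrating cells and whatever brain remains. Genes of mitosis are transcribed together late in the cell cycle, many of them through CHR elements, which the MuvB complex binds, and through CCAAT boxes, which NF-Y binds. Interferons act in part through IRF factors, which bind elements with paired GAAA cores in the promoters of genes for antigen presentation and antiviral defence.

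All 26 genes of the mitosis and spindle list rose in every line, and each lay above all 3 naïve samples in 12 of 12 tumors. Over all 17481 tested genes, 1288 were shared higher with 12 of 12 tumors above naïve brain. The list's median log2 fold change was 4.66, beside 0.01 over all tested genes, and its medians in the lines lay close to each other, at 4.90 (CT2A), 4.34 (GL261), 4.34 (005) and 4.75 (Mut3). The same 26 genes were shared without 005 replicate 3, whose own list median lay 1.74 above the naïve mean on the log2 scale, against 3.91 to 4.90 in the other tumors.

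Some promoters of mitotic genes hold both of the motifs named above. RefSeq promoters on GRCm38.p6 were searched in the 250 bases before the transcription start, on both strands, for TTTGAA (the CHR) and CCAAT. The 3 mitotic genes shown were picked for having both motifs and large changes in every line. Capitals mark matches to either motif, on either strand (TTCAAA and ATTGG on the reverse strand).
Prc1, chr7:80294402-80294463, plus strand: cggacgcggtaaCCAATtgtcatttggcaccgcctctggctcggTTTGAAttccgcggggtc
Cdk1, chr10:69352913-69353132, minus strand: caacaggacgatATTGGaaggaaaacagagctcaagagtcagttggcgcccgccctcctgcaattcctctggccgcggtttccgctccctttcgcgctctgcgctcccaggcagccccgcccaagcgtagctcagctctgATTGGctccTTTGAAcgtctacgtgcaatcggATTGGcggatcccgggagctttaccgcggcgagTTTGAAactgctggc
Mki67, chr7:135716460-135716579, minus strand: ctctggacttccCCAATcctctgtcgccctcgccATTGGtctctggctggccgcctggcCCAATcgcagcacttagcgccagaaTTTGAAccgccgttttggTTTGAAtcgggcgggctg
In Prc1 a single CCAAT and a single TTTGAA lie between 74 and 13 bases before the start. Of the 22 promoters found for 21 mitotic genes, 8 (36.4%, 95% Wilson interval 19.7 to 57.1) held both motifs, as did 4.10% of 15248 promoters of all tested genes. CCAAT was in 18 of the 22 (81.8%, 61.5 to 92.7) and in 35.1% of the promoters of all tested genes. Promoters of a gene with several starts overlap, so the intervals cover counting error only. A match is a run of letters and not a measured binding site.

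Prc1, which bundles the microtubules of the central spindle, had the largest smallest change over the 4 lines of all shared higher genes that could be named. The naïve samples held 3.66, 3.23 and 5.93 CPM of Prc1, and the 12 tumors 32.7 to 583 CPM (median 361). Every tumor lay above every naïve sample, 005 replicate 3 lowest. The log2 fold change was 6.38 ± 0.79 (SE, n = 3 mice in each of the 5 groups), and the line effects were 6.52 (CT2A), 6.28 (GL261), 6.44 (005) and 6.31 (Mut3). The test among lines gave an adjusted p of 0.984.

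Nusap1, a spindle-associated protein, was measured at 1.02, 0.745 and 3.51 CPM in naïve brain and at 15.9 to 275 CPM (median 155) in the tumors. Its log2 fold change was 6.395 ± 0.76 (SE). Cenpf, a kinetochore protein, was measured at 6.51, 8.20 and 5.39 CPM in naïve brain and at 30.9 to 888 CPM (median 453) in the tumors. Here too the groups did not overlap, and the log2 fold change was 6.09 ± 0.78. Top2a, the topoisomerase that untangles chromosomes, was measured at 9.77, 8.94 and 13.5 CPM in naïve brain and at 45.3 to 907 CPM (median 315) in the tumors. Top2a had a log2 fold change of 4.95 ± 0.61. Cdk1, the kinase that drives entry into mitosis, was measured at 5.29, 11.9 and 11.6 CPM in naïve brain and at 32.2 to 400.1 CPM (median 215) in the tumors. That is a log2 fold change of 4.58 ± 0.67, with line effects between 4.29 and 4.87. Kif20a, a kinesin of cytokinesis, had the smallest change of the list: it was measured at 12, 18.4 and 17.0 CPM in naïve brain and at 20.7 to 111 CPM (median 63.9) in the tumors, with a log2 fold change of 2.03 ± 0.36.

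Mki67, which codes for the proliferation antigen Ki-67, was measured at 3.05, 2.24 and 1.89 CPM in naïve brain and at 7.88 to 284 CPM (median 69.5) in the tumors. The groups did not overlap. It was 1 of 2 mitotic genes (Aurkb was the other) whose line effects differed, with log2 fold changes of 4.91 (CT2A), 4.11 (GL261), 4.50 (005) and 6.54 (Mut3) (adjusted p = 0.018, edgeR's quasi-likelihood test among the 4 lines).

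Of the 15 shared higher genes with the largest smallest line change, 9 were members of the mitosis and replication lists, and the other 6 were Sinhcaf, Sgo1, Cdca3, Hmmr, Ndc80 and Kif15. Sgo1 protects centromeric cohesion, Cdca3 and Ndc80 act in mitotic entry and at the kinetochore, and Hmmr and Kif15 act on the spindle. Sinhcaf, a subunit of the Sin3 histone deacetylase complex, was measured at 1.02, 0.994 and 1.89 CPM in naïve brain and at 19.1 to 330.3 CPM (median 95.4) in the tumors. Sinhcaf had a log2 fold change of 6.44 ± 0.81, the largest of the 15. Hmmr was measured at 2.24, 3.48 and 4.32 CPM in naïve brain and at 10.4 to 195 CPM (median 127) in the tumors. The smallest line effect of Hmmr was 4.63. In the plot of the largest shared changes, CT2A or Mut3 was the line farthest from 0 for each gene.

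**Figure D1:**
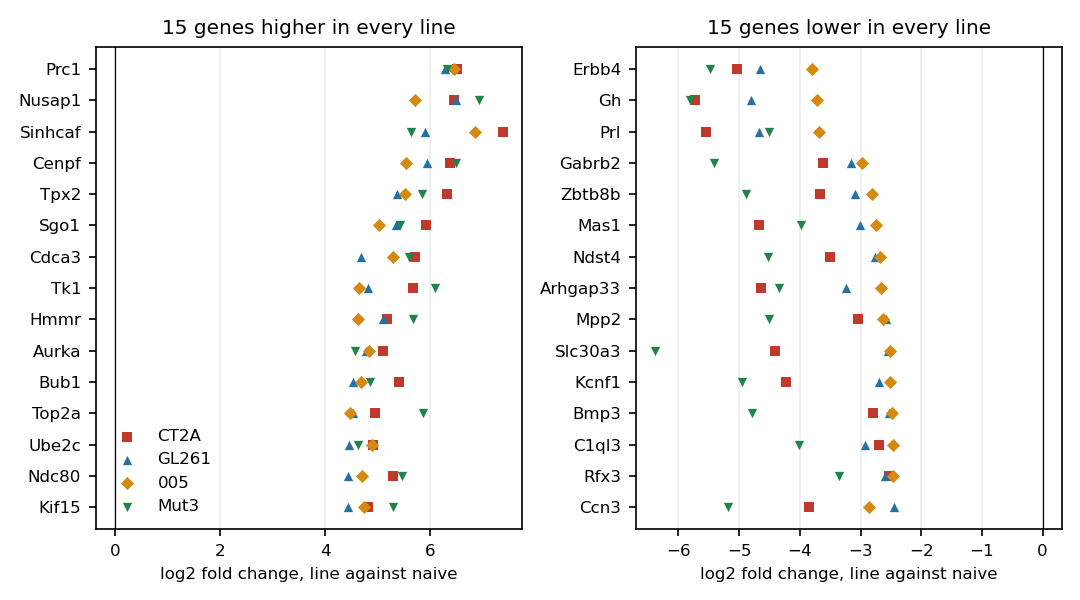
Log2 fold change against naïve brain (horizontal axis) of the 15 named genes per direction with the largest smallest change over the 4 lines, 1 symbol per line from edgeR's fit. The smallest line effects are 6.28 for Prc1 and -3.80 for Erbb4, and among the lower genes Mut3 lies farthest from 0 for 12 of 15.

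Genes of DNA replication followed, with 24 of 27 shared higher and 19 of them above naïve brain in 12 of 12 tumors, beside 1288 of all 17481 tested genes. The list's median log2 fold change was 3.23, from 2.55 in 005 to 3.71 in Mut3. Without 005 replicate 3 the count was also 24. Tk1, thymidine kinase of the salvage pathway, was measured at 0.407, 1.24 and 1.89 CPM in naïve brain and at 6.25 to 105 CPM (median 45.4) in the tumors. Every tumor lay above every naïve sample, with a log2 fold change of 5.30 ± 0.66. Tyms, thymidylate synthase, was measured at 6.51, 6.96 and 7.82 CPM in naïve brain and at 17.5 to 352 CPM (median 144) in the tumors. Tyms had a log2 fold change of 4.47 ± 0.58. Mcm6, a subunit of the replicative helicase, was measured at 5.49, 4.47 and 4.58 CPM in naïve brain and at 13.6 to 132 CPM (median 59.5) in the tumors. Mcm6 had a log2 fold change of 3.58 ± 0.46.

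Rrm2, the regulated subunit of ribonucleotide reductase, was measured at 4.68, 6.71 and 2.97 CPM in naïve brain and at 16.5 to 243 CPM (median 93.5) in the tumors. Its line effects differed, from 3.00 in GL261 to 5.08 in Mut3 (adjusted p = 0.0377). Gins2, part of the helicase complex, also differed among lines (adjusted p = 0.00794), between 2.13 in 005 and 5.13 in Mut3. Pcna, the sliding clamp, moved little by comparison. The naïve samples held 100.3, 69.1 and 147 CPM of Pcna, and the 12 tumors 88.9 to 374 CPM (median 215). 11 of 12 tumors lay above all naïve samples, 005 replicate 3 being the exception, and the log2 fold change was 1.08 ± 0.31. The call on Pcna was lost without naïve replicate 1 (log2 fold change 1.05, adjusted p = 0.0573) or naïve replicate 2 (1.01, adjusted p = 0.0522). The 3 members that were not shared had log2 fold changes of 0.23 (Pola1, polymerase alpha), 0.49 (Pole, polymerase epsilon) and 0.44 (E2f1), none of which passed the test (adjusted p = 0.425, 0.109 and 0.223). Pola1 differed among lines (adjusted p = 0.0017), at 0.90 (CT2A), -0.49 (GL261), -0.43 (005) and 0.94 (Mut3).

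Ribosome assembly rose in part: 7 of 14 genes were shared higher, with a list median of 1.07. Npm1, a nucleolar chaperone, was measured at 444, 188 and 429 CPM in naïve brain and at 432 to 3236 CPM (median 1568) in the tumors. Of the tumors, 11 of 12 lay above naïve brain. Myc, which codes for a transcription factor that drives growth genes, was measured at 4.48, 3.98 and 2.70 CPM in naïve brain and at 12.4 to 159 CPM (median 29.8) in the tumors. All 12 tumors lay outside the naïve range. The log2 fold change of Myc was 3.56 ± 0.46, and its line effects differed (adjusted p = 0.00209), Mut3 being highest at 5.16. The 7 members that were not shared were Pes1, Bop1, Wdr12, Polr1b, Gar1, Rrp9 and Fbl. Of 10 p53 target genes tested, Eda2r was shared higher and Zmat3 shared lower, beside 14.5% and 15.5% of all tested genes. The list's median was 0.15 (-0.28 with limma on log2(TPM + 1)). Eda2r was at 0, 0 and 0.539 CPM in naïve brain, under 3 counts per library. In the tumors it was at 0.620 to 16.7 CPM (median 1.35), and limma on log2(TPM + 1) gave 0.19 (adjusted p = 0.0584). Zmat3, a zinc finger RNA-binding protein, was measured at 42.3, 50.9 and 31.8 CPM in naïve brain and at 8.68 to 30.6 CPM (median 13.0) in the tumors. Zmat3 had a log2 fold change of -1.57 ± 0.27, lower in 12 of 12 tumors. Cdkn1a, the p21 inhibitor of cyclin-dependent kinases, had a log2 fold change of 1.48 ± 0.61 that missed the test (adjusted p = 0.0631). It passed under 9 of the 28 alternatives run, among them without naïve replicate 3 (log2 fold change 2.20, adjusted p = 0.0357) and without 005 replicate 3 (1.56, adjusted p = 0.0170).

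Cdkn2a, the locus of the p16 and p19 tumor suppressors, was named after its values were seen. No naïve library held a read of it, and the 12 tumors ranged from 0.923 to 12.6 CPM, with a median of 6.02. Against 3 counts in each naïve library, the mean of the lowest line was at least 2.88-fold higher.

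Trp53, Nf1 and Hras are some of the genes altered in the lines. Trp53 and Nf1 were shared higher and Hras was shared lower, on counts that cover tumor and host cells together and do not show an allele. The naïve samples held 8.95, 13.9 and 9.17 CPM of Trp53, and the 12 tumors 14.6 to 86.5 CPM (median 45.0). Every tumor lay above every naïve sample, and the log2 fold changes were 2.53 (CT2A), 1.74 (GL261), 0.76 (005) and 2.50 (Mut3) (adjusted p = 0.00489 among lines). Nf1, which codes for a RAS GTPase-activating protein, was measured at 6.31, 9.44 and 8.36 CPM in naïve brain and at 12.1 to 48.6 CPM (median 20.2) in the tumors. Its log2 fold change was 1.39 ± 0.31. Hras had a log2 fold change of -1.51 ± 0.33, and -0.98 without naïve replicate 2 (adjusted p = 0.0604).

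Antigen presentation by MHC class I rose in every line. Of 10 genes, 8 were shared higher, 7 of them above naïve brain in 12 of 12 tumors, beside 1288 of all 17481 tested genes. The list's median log2 fold change was 3.50, with line medians from 2.41 in Mut3 to 3.97 in GL261. Without 005 replicate 3 the count was also 8. B2m, the invariant chain of class I molecules, was measured at 482, 394 and 563 CPM in naïve brain and at 1037 to 12794 CPM (median 6308) in the tumors. The groups did not overlap and the log2 fold change was 3.70 ± 0.56. Psmb9, a subunit of the immunoproteasome, was measured at 8.55, 7.70 and 4.32 CPM in naïve brain and at 31.7 to 407 CPM (median 128) in the tumors. Psmb9 had a log2 fold change of 4.54 ± 0.79. Tap1, which with Tap2 moves peptides into the endoplasmic reticulum, was measured at 2.24, 2.73 and 3.51 CPM in naïve brain and at 9.48 to 144 CPM (median 28.1) in the tumors. Tap1 had a log2 fold change of 3.78 ± 0.69. H2-D1 and H2-K1, the class I heavy chains of this strain, had log2 fold changes of 3.50 ± 0.51 and 3.50 ± 0.54. These genes resemble each other in sequence and can share reads, so each value is uncertain. Tapbp, the tapasin of the loading complex, and Psmb10 were not shared. Psmb10 had log2 fold changes of -0.09 (CT2A), 1.38 (GL261), 0.57 (005) and -0.49 (Mut3) (adjusted p = 0.00913 among lines), and Tapbp was called higher at 1.70 ± 0.49 but overlapped naïve brain in the mean of Mut3. The call on Tapbp was lost without naïve replicate 1 (1.66, at the threshold) or naïve replicate 3 (1.43, adjusted p = 0.0623).

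Of 18 interferon response genes, 14 were shared higher and all 18 were called higher over the 4 lines together. The list's median log2 fold change was 2.96, with 3.62 (CT2A), 4.27 (GL261), 3.11 (005) and 1.01 (Mut3). The stretches below come from shared interferon genes whose 250 bases before the start hold the element GAAANNGAAA on either strand, and are shown as examples of it. Capitals mark the element.
Bst2, chr8:71537575-71537614, minus strand: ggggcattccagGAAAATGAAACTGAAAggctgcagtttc
Igtp, chr11:58199510-58199543, plus strand: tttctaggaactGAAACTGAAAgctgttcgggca
Gbp2, chr3:142620592-142620625, plus strand: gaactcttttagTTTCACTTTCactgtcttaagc
Rsad2, chr12:26456551-26456584, minus strand: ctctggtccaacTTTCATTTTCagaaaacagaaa
In Bst2 a pair of elements overlap, and in Gbp2 and Rsad2 the element reads on the reverse strand, as TTTC repeats. The element was in 10 of 17 promoters found for 14 genes of the list (58.8%, 95% Wilson interval 36.0 to 78.4) and in 2.81% of the promoters of all tested genes.

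Gbp2, an interferon-induced GTPase, was measured at 17.3, 19.4 and 17.8 CPM in naïve brain and at 24.8 to 2457 CPM (median 245) in the tumors. Tumors and naïve brain did not overlap. Its log2 fold changes were 3.72 (CT2A), 5.88 (GL261), 5.82 (005) and 2.14 (Mut3) (adjusted p = 0.0101 among lines). Igtp, a GTPase of the IRG family, was measured at 17.5, 17.4 and 26.7 CPM in naïve brain and at 31.0 to 1928 CPM (median 178) in the tumors. Line effects ran from 2.41 in Mut3 to 5.97 in GL261 (adjusted p = 0.00462). Bst2, the antiviral protein tetherin, was measured at 3.26, 4.72 and 2.70 CPM in naïve brain and at 13.3 to 291 CPM (median 72.4) in the tumors. Line effects ran from 2.78 in Mut3 to 5.87 in GL261 (adjusted p = 0.000523). Families such as the Gbp, Irg and Ifit genes have near-identical members, and their counts are uncertain where reads are shared. The 4 members outside the shared set were Irf7, Oasl2, Ifit1 and Ifit3. Ifit1, an antiviral RNA-binding protein, had log2 fold changes of 4.72 (CT2A), 3.87 (GL261), 1.64 (005) and 0.06 (Mut3), and in Mut3 it was near naïve brain. Irf7 likewise had 4.14 (CT2A), 3.80 (GL261), 2.24 (005) and 0.42 (Mut3) (adjusted p = 0.00436 among lines).

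Phagocyte genes were shared for 12 of 19 members, while all 19 were called higher over the 4 lines together. Their summed level ranged from 661 to 874 CPM in naïve brain and from 1347.5 to 21733 CPM in the 12 tumors, with a median of 4879. The line medians of the log2 fold change were 2.13 (CT2A), 3.02 (GL261), 3.18 (005) and 0.66 (Mut3). Ms4a7, a membrane protein of infiltrating and border-associated macrophages, was measured at 3.46, 1.24 and 3.78 CPM in naïve brain and at 10.2 to 200.5 CPM (median 55.0) in the tumors. The groups did not overlap, and the line effects of Ms4a7, 4.67 (CT2A), 4.73 (GL261), 5.17 (005) and 3.38 (Mut3), did not pass the test among lines (adjusted p = 0.212). With Mut3 left out, all 19 were shared. Lgals3, the lectin galectin-3, was measured at 3.87, 5.71 and 2.43 CPM in naïve brain and at 19.1 to 261 CPM (median 48.0) in the tumors. Lgals3 had a log2 fold change of 3.98 ± 0.63. Lyz2, lysozyme of myeloid cells, was measured at 139, 169 and 144 CPM in naïve brain and at 208 to 10033 CPM (median 854) in the tumors. Its line effects ran from 1.63 in Mut3 to 4.88 in 005 (adjusted p = 0.00675). Spp1, osteopontin, was measured at 127, 107 and 186 CPM in naïve brain and at 203 to 6478 CPM (median 627) in the tumors. Its line effects ran from 1.36 in Mut3 to 4.62 in 005 (adjusted p = 0.00485).

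Gpnmb, a glycoprotein of lipid-laden macrophages and of some tumor cells, was measured at 5.90, 10.4 and 6.20 CPM in naïve brain and at 18.6 to 319 CPM (median 133) in the tumors. Every tumor lay above naïve brain, with line effects of 1.87 (CT2A), 5.26 (GL261), 2.401 (005) and 5.10 (Mut3) (adjusted p = 2.99e-05), highest in GL261 and Mut3. Ctss, cathepsin S, and Tyrobp, a signalling adaptor of myeloid receptors, rose over the 4 lines together but had line effects of 0.25 and 0.13 in Mut3, whose means overlapped naïve brain. Of homeostatic microglia genes, none of 10 was shared higher and 1 was shared lower, beside 14.5% and 15.5% of all tested genes. The list median was -0.54. The line medians were -0.43 (CT2A), 0.12 (GL261), -0.27 (005) and -1.84 (Mut3), 9 of the 10 genes differed among lines, and the list median was -0.13 with Mut3 left out and -0.84 with GL261 left out. P2ry12, a purinergic receptor of resting microglia, was measured at 60.0, 31.8 and 57.4 CPM in naïve brain and at 1.90 to 37.9 CPM (median 10.5) in the tumors. 10 of 12 tumors lay below naïve brain, and the log2 fold change was -2.13 ± 0.38. The summed level of the microglia list was 271 to 314 CPM in naïve brain and 102 to 483 CPM in the tumors.

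T and NK cell genes were shared higher for 8 of 11 tested, namely Cd3d, Cd3g, Cd8a, Cd8b1, Gzma, Gzmb, Nkg7 and Pdcd1. The list's summed level was 11.3 to 35.3 CPM in naïve brain and 14.95 to 935 CPM in the tumors, so the ranges overlapped. In the Mut3 tumors it was 14.95 to 39.4 CPM. Without 005 replicate 3 the count was 7. Line medians of the log2 fold change were 3.70 (CT2A), 4.71 (GL261), 5.65 (005) and 1.13 (Mut3). Cd3g, a chain of the T cell receptor complex, was measured at 0.814, 0.497 and 2.97 CPM in naïve brain and at 1.63 to 141 CPM (median 20.8) in the tumors. 10 of 12 tumors lay above naïve brain. Gzmb, the cytotoxic granzyme B, was measured at 1.83, 1.99 and 1.08 CPM in naïve brain and at 1.75 to 201 CPM (median 51.3) in the tumors. Line effects of Gzmb were 5.06 (CT2A), 5.54 (GL261), 5.91 (005) and 0.28 (Mut3) (adjusted p = 0.000992 among lines). Gzmb met the rule by a small margin, its Mut3 mean being 2.003 CPM and naïve replicate 2 standing at 1.988 CPM. Cd8a, the co-receptor of cytotoxic T cells, was at 0.407, 0.248 and 0.270 CPM in naïve brain, under 3 counts per library, and at 0.670 to 45.9 CPM (median 7.39) in the tumors. Cd4, a co-receptor of helper T cells that myeloid cells also express, went the other way at -1.82 ± 0.59, but its level in naïve replicate 2 (26.3 CPM) decided this, and without that sample the log2 fold change was 0.22 (adjusted p = 0.816).

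The plot of gene lists by sample shows which lists separate every tumor from naïve brain. With limma on log2(TPM + 1), 7 interferon, 5 phagocyte, 3 T and NK cell, 2 matrix and 2 ribosome assembly genes, and 0 endothelial ones, met the rule on the higher side.

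**Figure D2:**
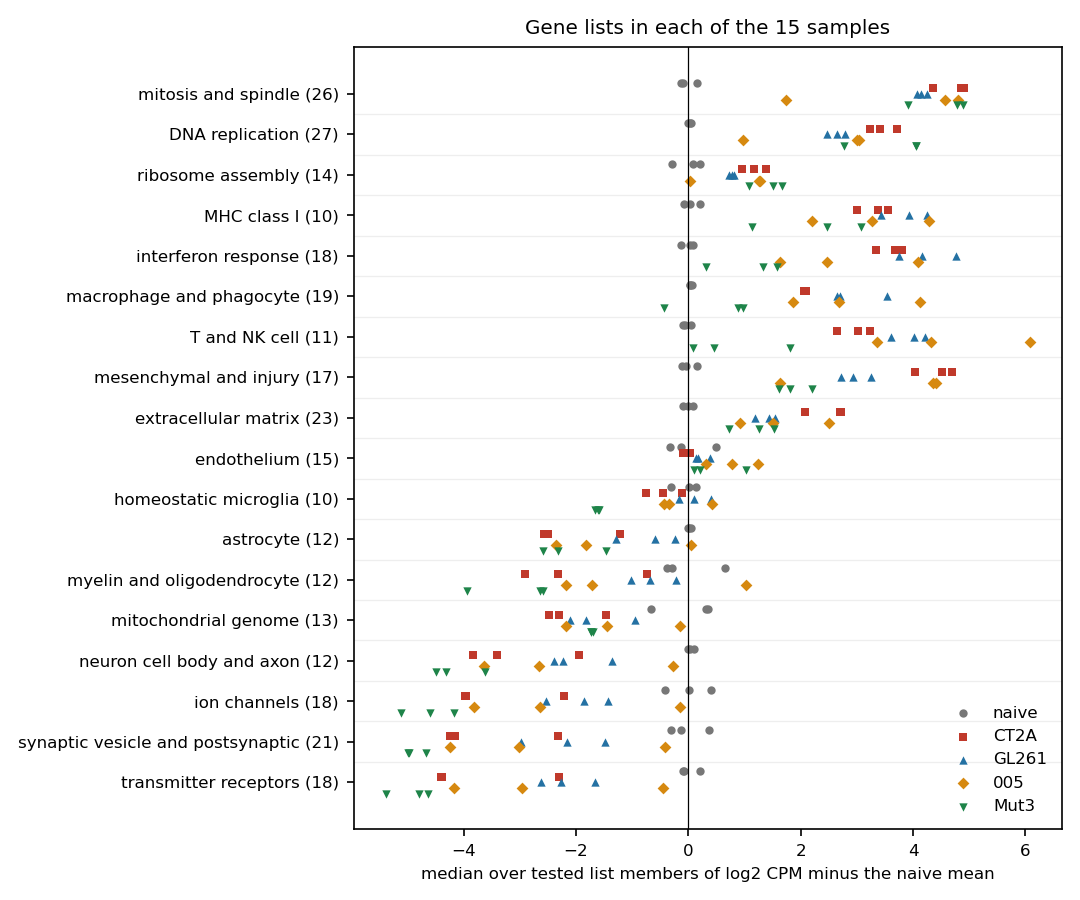
Median over the tested members of a gene list (number in parentheses) of log2 CPM minus the gene's naïve mean, 1 symbol per sample. The mitosis list lies between 3.91 and 4.90 in 11 tumors and at 1.74 in 005 replicate 3, while the synaptic list lies at -0.41 in that sample and between -4.99 and -1.48 in the others.

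Genes of the mesenchymal and injury list were shared higher for 15 of 17, with a list median of 3.47. Vim, the intermediate filament vimentin, was measured at 31.3, 53.4 and 31.3 CPM in naïve brain and at 238 to 1609 CPM (median 818) in the tumors. The tumor and naïve ranges were separate, the log2 fold change was 4.42 ± 0.57, and the line effects ran from 4.02 to 4.70. Anxa2, a calcium-dependent membrane-binding protein, was measured at 53.5, 55.7 and 64.2 CPM in naïve brain and at 127 to 1128 CPM (median 660.5) in the tumors. Anxa2 had a log2 fold change of 3.49 ± 0.49. Lgals1, galectin-1, was measured at 312, 359.8 and 331 CPM in naïve brain and at 1706 to 19472 CPM (median 5588) in the tumors. Line effects ran from 2.84 in Mut3 to 5.18 in 005 (adjusted p = 0.0212). S100a6, a calcium-binding protein, was measured at 124.5, 129.9 and 149.7 CPM in naïve brain and at 391 to 9508 CPM (median 1052) in the tumors. Its line effects ran from 1.87 in Mut3 to 5.92 in CT2A (adjusted p = 0.00105). Cd44, the hyaluronan receptor, was measured at 9.97, 10.4 and 13.2 CPM in naïve brain and at 27.2 to 372 CPM (median 108) in the tumors. Line effects ran from 2.21 in Mut3 to 4.88 in CT2A (adjusted p = 0.00571). Cav1, caveolin-1, was not shared: its log2 fold changes were 3.095 (CT2A), -0.19 (GL261), -0.14 (005) and 0.66 (Mut3) (adjusted p = 0.00099 among lines).

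Extracellular matrix genes were shared higher for 13 of 23, with a list median of 1.71. Plod2, a lysyl hydroxylase of collagen, was measured at 4.68, 3.48 and 2.70 CPM in naïve brain and at 12.6 to 119.8 CPM (median 82.6) in the tumors. No tumor overlapped naïve brain, and the line effects, 4.92 (CT2A), 4.46 (GL261), 4.02 (005) and 4.30 (Mut3), did not pass the test among lines (adjusted p = 0.45). Col3a1, the chain of type III collagen, was measured at 5.29, 5.47 and 6.47 CPM in naïve brain and at 7.28 to 549.9 CPM (median 127) in the tumors. By line, Col3a1 changed by 6.37 (CT2A), 4.85 (GL261), 2.22 (005) and 3.04 (Mut3) on the log2 scale (adjusted p = 0.00127). Col4a1, a chain of basement membrane collagen, was measured at 6.10, 16.6 and 4.05 CPM in naïve brain and at 16.1 to 323 CPM (median 37.4) in the tumors. CT2A was highest, with line effects from 1.03 in GL261 to 4.99 (adjusted p = 0.000486). Sparc, a matricellular protein, and Timp1, an inhibitor of metalloproteinases, lay above naïve brain in 12 of 12 tumors, with log2 fold changes of 1.46 ± 0.28 and 2.46 ± 0.47. Col1a1, the main chain of type I collagen, was not shared, at 0.43 ± 0.55 (adjusted p = 0.55). Of fibroblast and meningeal genes, none of 5 was shared higher and Islr was shared lower, beside 14.5% and 15.5% of all tested genes. Their summed level was 27.2 to 140.3 CPM in naïve brain and 19.0 to 86.8 CPM in the tumors.

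Vessel genes were shared for 3 of 15 endothelial markers, all higher, and none was with limma on log2(TPM + 1). Of all tested genes, 14.5% were shared higher. Another endothelial marker was called lower without being shared, and log2 fold changes over the list ran from -4.09 to 3.70. The list's median log2 fold change was 0.14, but 0.77 without naïve replicate 2, -0.077 on library sizes without TMM and -0.20 with limma. Angpt2, which loosens vessels for sprouting, was measured at 5.09, 2.98 and 2.16 CPM in naïve brain and at 8.73 to 71.1 CPM (median 17.1) in the tumors. All 12 tumors lay outside the naïve range, and the log2 fold change was 2.62 ± 0.44, highest in Mut3 at 3.84 (adjusted p = 0.0141 among lines). Vwf, von Willebrand factor, was measured at 4.27, 4.47 and 4.32 CPM in naïve brain and at 5.48 to 31.7 CPM (median 12.3) in the tumors. Vwf had a log2 fold change of 1.62 ± 0.41. Esm1, a product of tip cells, was at 0.814, 0.497 and 0 CPM in naïve brain, near the floor, and at 0.852 to 19.3 CPM (median 6.23) in the tumors. Pecam1, the marker CD31 of all endothelium, had a log2 fold change of -0.48 ± 0.19 that did not pass the test (adjusted p = 0.0557). None of 6 mural cell genes was shared. Of 12 hypoxia and glycolysis genes tested, Hk2 and Vegfa were shared higher, beside 14.5% of all tested genes. The median log2 fold change of this list was 0.75, and -0.057 with limma on log2(TPM + 1). Hk2, hexokinase 2, was measured at 1.42, 3.48 and 1.89 CPM in naïve brain and at 6.75 to 39.7 CPM (median 14.6) in the tumors. Its log2 fold change was 2.98 ± 0.60. Vegfa, the vascular growth factor, was measured at 15.1, 14.2 and 9.98 CPM in naïve brain and at 13.9 to 72.1 CPM (median 30.7) in the tumors. 11 of 12 tumors lay above naïve brain and the log2 fold change was 1.27 ± 0.36, but the call was lost without naïve replicate 3 (1.12, adjusted p = 0.0584). Vegfa changed least in GL261, at 0.33, with a mean of 16.4 CPM. Pkm, pyruvate kinase, lay below naïve brain in 12 of 12 tumors, with a log2 fold change of -0.70 ± 0.18 under the limit of the rule. Ndrg1, a hypoxia target that oligodendrocytes also express, was called lower at -1.64 ± 0.35, and without naïve replicate 2 it was at -0.81 (adjusted p = 0.0888).

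Genes of the synapse fell in every line. All 21 genes of the synaptic vesicle and postsynaptic list were shared lower, with a median log2 fold change of -2.99. Of these, 12 lay below naïve brain in 12 of 12 tumors, beside 1111 shared lower genes among all 17481 tested. The line medians were -3.39 (CT2A), -2.13 (GL261), -1.85 (005) and -5.09 (Mut3). In bulk tissue, fewer cells of a type and less RNA per cell cannot be told apart. The same 21 genes were shared lower without 005 replicate 3. Snap25, a SNARE protein of vesicle fusion, was measured at 2363, 1805 and 3341 CPM in naïve brain and at 26.6 to 1822 CPM (median 186) in the tumors. 11 tumors lay below naïve brain and 005 replicate 3 lay just inside its range. The log2 fold change was -3.28 ± 0.59. Syt1, the calcium sensor of release, was measured at 1385, 942 and 1561 CPM in naïve brain and at 2.90 to 748 CPM (median 83.3) in the tumors. Tumors and naïve brain did not overlap, and the log2 fold change was -3.48 ± 0.67.

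Slc17a7, the vesicular glutamate transporter of cortical excitatory neurons, was measured at 113, 196 and 108 CPM in naïve brain and at 1.34 to 70.4 CPM (median 9.01) in the tumors. Slc17a7 had a log2 fold change of -3.45 ± 0.63. Gad1, which makes GABA in inhibitory neurons, was measured at 134, 159 and 167 CPM in naïve brain and at 3.24 to 128 CPM (median 19.7) in the tumors. Gad1 had a log2 fold change of -2.91 ± 0.51, so markers of both transmitter types fell. Syn2, synapsin II, was measured at 368, 247 and 228 CPM in naïve brain and at 11.5 to 174 CPM (median 35.8) in the tumors. Its line effects were the more even, -3.09 (CT2A), -2.56 (GL261), -1.998 (005) and -2.91 (Mut3) (adjusted p = 0.63 among lines).

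Every one of the 18 transmitter receptor genes was shared lower (list median -3.13), as were 17 of 18 ion channel genes (list median -2.76). Gria2, the AMPA receptor subunit that limits calcium entry, was measured at 1055, 684 and 1015 CPM in naïve brain and at 3.24 to 505 CPM (median 67.0) in the tumors. The tumor and naïve ranges were separate. Line effects were -3.91 (CT2A), -2.13 (GL261), -2.05 (005) and -6.04 (Mut3) (adjusted p = 0.0213). Gria4, another AMPA receptor subunit, was measured at 34.0, 27.3 and 27.8 CPM in naïve brain and at 2.29 to 21.9 CPM (median 5.74) in the tumors. Its log2 fold change of -1.93 ± 0.49 was the smallest of the list. Grin2b, an NMDA receptor subunit, was measured at 479, 189 and 394 CPM in naïve brain and at 0.446 to 237 CPM (median 26.9) in the tumors. Line effects of Grin2b ran from -1.51 in 005 to -8.03 in Mut3 (adjusted p = 0.00898). Gabrb2, a subunit of the GABA-A receptor, had a log2 fold change of -3.79 ± 0.69 and was the 1 list member among the 15 lower genes with the largest smallest line change.

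Scn2a, a voltage-gated sodium channel of excitatory axons, was measured at 328, 159 and 230.1 CPM in naïve brain and at 6.58 to 112 CPM (median 19.7) in the tumors. No tumor overlapped naïve brain, and the log2 fold change was -3.18 ± 0.50. Scn1a, a sodium channel of inhibitory neurons, was measured at 111, 149 and 119.7 CPM in naïve brain and at 1.00 to 179 CPM (median 15.7) in the tumors. 11 tumors lay below naïve brain, while 005 replicate 3 lay above it, and with Mut3 left out the log2 fold change of -2.85 became -1.67 (adjusted p = 0.0661). Kcna1, a potassium channel of axons, was the 1 channel not shared, although it was called lower at -2.50 ± 0.72. Without 005 replicate 3 it was shared too, and all 18 channel genes met the rule. The call on Kcna1 was lost without naïve replicate 2 (-1.81, adjusted p = 0.117).

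All 12 genes of the neuron cell body and axon list were shared lower, with a median of -2.44. Rbfox3, the nuclear antigen NeuN, was measured at 75.5, 116 and 108 CPM in naïve brain and at 1.67 to 65.4 CPM (median 9.21) in the tumors. All 12 tumors lay outside the naïve range, and the log2 fold change was -3.15 ± 0.55. Map2, a microtubule protein of dendrites, was measured at 839, 274 and 346 CPM in naïve brain and at 34.1 to 194 CPM (median 80.2) in the tumors. By line, Map2 changed by -3.12 (CT2A), -1.61 (GL261), -2.20 (005) and -2.42 (Mut3) on the log2 scale, which did not pass the test among lines (adjusted p = 0.153). Nefl, the light neurofilament, was measured at 263, 286 and 203 CPM in naïve brain and at 1.67 to 232 CPM (median 27.7) in the tumors. Line effects of Nefl ran from -1.41 in 005 to -6.07 in Mut3 (adjusted p = 0.0123). Tubb3, a tubulin of neurons that some tumor cells also express, was measured at 132, 145 and 162 CPM in naïve brain and at 7.28 to 161 CPM (median 37.0) in the tumors. In GL261 its line effect was -0.28, against -3.52 in Mut3 (adjusted p = 0.00283).

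Of 8 activity-induced genes, Arc, Npas4, Egr1 and Fosb were shared lower, a count that was 2 without 005 replicate 1 and 2 without 005 replicate 2. Arc, an immediate early gene of synaptic plasticity, was measured at 17.9, 43.0 and 12.7 CPM in naïve brain and at 0.351 to 29.6 CPM (median 1.30) in the tumors. 11 tumors lay below naïve brain. Npas4, an activity-dependent transcription factor, was at 5.29, 4.22 and 2.43 CPM in naïve brain and at 0 to 2.27 CPM (median 0.279) in the tumors. Of 6 forebrain genes tested, 5 were shared lower. Neurod6, a transcription factor of cortical projection neurons, was measured at 156, 41.7 and 106 CPM in naïve brain and at 0.893 to 61.4 CPM (median 4.27) in the tumors. Neurod6 had a log2 fold change of -3.81 ± 0.66. The forebrain count was 3 without naïve replicate 2, GL261 replicate 1 or 005 replicate 1.

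Of 12 myelin genes, 8 were called lower over the 4 lines together. Only 2, Mag and Opalin, were shared, beside 15.5% of all tested genes shared lower. Without 005 replicate 3, 7 were shared. The summed level of the myelin list was 1855 to 4553 CPM in naïve brain and 261 to 5168 CPM in the tumors. Mag, a glycoprotein of the inner myelin wrap, was measured at 38.5, 31.8 and 18.6 CPM in naïve brain and at 4.31 to 29.6 CPM (median 8.17) in the tumors. Mag had a log2 fold change of -1.49 ± 0.46, and the call was lost without naïve replicate 1 (-1.25, adjusted p = 0.0998) or naïve replicate 2 (-1.29, adjusted p = 0.0806). Opalin, an oligodendrocyte membrane protein, had -1.42 ± 0.51 (adjusted p = 0.0357), and lost the call when any of the naïve samples, CT2A replicates 2 or 3, GL261 replicates 1 or 3, or Mut3 replicates 1 or 3 was left out, with values from -1.51 to -1.15. Naïve brain held 35.6, 48.0 and 39.1 CPM of Opalin, and 005 replicate 3 held 80.8 CPM. The mean of Opalin in 005 was 34.3 CPM, a line effect of -0.25. None of 5 oligodendrocyte progenitor genes was shared, and all 5 differed among lines.

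Of 12 astrocyte genes, 5 were shared lower and 1, Gfap, shared higher, beside 15.5% and 14.5% of all tested genes. Gfap, the filament that reactive astrocytes and some glioma cells make, was measured at 9.16, 6.46 and 6.47 CPM in naïve brain and at 9.29 to 86.6 CPM (median 25.2) in the tumors. Tumors and naïve brain did not overlap, though 1 tumor at 9.29 CPM was close to the highest naïve sample, and the log2 fold change was 1.83 ± 0.51. Slc1a2, the main glutamate transporter of astrocytes, was measured at 538, 1069 and 451 CPM in naïve brain and at 16.7 to 669 CPM (median 100.3) in the tumors. 11 tumors lay below naïve brain, and the log2 fold change was -2.53 ± 0.54. Slc7a10, a neutral amino acid transporter of astrocytes, was measured at 13.8, 19.4 and 13.2 CPM in naïve brain and at 0.446 to 10.9 CPM (median 2.51) in the tumors. Its log2 fold change was -2.50 ± 0.41. Glul, glutamine synthetase, had -1.94 ± 0.37. The count of lower astrocyte genes was 3 without naïve replicate 1 or naïve replicate 3. Of the lists of other tissue, none of 5 choroid plexus and none of 5 erythrocyte genes was shared, and Cbln1 was the 1 shared gene of 2 cerebellar genes tested.

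Transcripts of the mitochondrial genome were shared lower for 10 of 13 genes, with a list median of -1.64 and none of the 10 different among lines. mt-Co3, a subunit of cytochrome oxidase, was measured at 60512, 25017 and 60010.0 CPM in naïve brain and at 9651 to 39010.4 CPM (median 14656) in the tumors. mt-Co3 had a log2 fold change of -1.65 ± 0.35. mt-Nd1, a subunit of complex I, was measured at 12911, 5881 and 12602 CPM in naïve brain and at 1769 to 8454 CPM (median 2575) in the tumors. mt-Nd1 had a log2 fold change of -1.77 ± 0.35. In both genes naïve replicate 2 was the lowest naïve sample and 005 replicate 3 the highest tumor. mt-Cytb, mt-Nd3 and mt-Nd4l were not shared, with log2 fold changes of -1.36 ± 0.33 for mt-Cytb and -1.06 ± 0.42 for mt-Nd3. The count was 5 without 005 replicate 2.

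The 15 named lower genes with the largest smallest line change were Erbb4, Gh, Prl, Gabrb2, Zbtb8b, Mas1, Ndst4, Arhgap33, Mpp2, Slc30a3, Kcnf1, Bmp3, C1ql3, Rfx3 and Ccn3. Erbb4, a neuregulin receptor of inhibitory neurons, was measured at 34.4, 257 and 17.8 CPM in naïve brain and at 0 to 17.8 CPM (median 2.42) in the tumors. Naïve replicate 2 was far above the other naïve samples, and without it the log2 fold change of -4.74 became -2.62 (adjusted p = 0.0578). Gh, growth hormone of the anterior pituitary, was measured at 619.5, 185 and 70.7 CPM in naïve brain and at 2.17 to 56.0 CPM (median 5.69) in the tumors. Prl, prolactin of the same gland, was measured at 1176, 247 and 97.1 CPM in naïve brain and at 8.53 to 98.1 CPM (median 12.7) in the tumors. Both hormones differed several-fold among the naïve samples, naïve replicate 1 being highest, and their log2 fold changes were -5.02 ± 0.63 and -4.60 ± 0.62. Pomc, a further pituitary hormone precursor, named after its values were seen, was at 57.2, 9.69 and 8.09 CPM in naïve brain and at 0.411 to 9.66 CPM (median 1.31) in the tumors, and without naïve replicate 1 its log2 fold change of -3.40 became -1.90 (adjusted p = 0.0802). The amount of pituitary tissue in each sample was not tested.

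Slc30a3, the zinc transporter of glutamatergic vesicles, was measured at 38.5, 68.6 and 24.3 CPM in naïve brain and at 0.263 to 18.0 CPM (median 1.82) in the tumors. Slc30a3 had a log2 fold change of -3.97 ± 0.57. Kcnf1, a modifying potassium channel subunit, was measured at 48.2, 62.9 and 39.9 CPM in naïve brain and at 0.310 to 19.8 CPM (median 3.03) in the tumors. Kcnf1 had a log2 fold change of -3.60 ± 0.61. Mas1, a receptor for angiotensin 1-7, was measured at 19.1, 8.94 and 16.2 CPM in naïve brain and at 0 to 5.26 CPM (median 0.949) in the tumors. No tumor overlapped naïve brain in these 3 genes. Ndst4, a heparan sulfate modifying enzyme, was measured at 27.5, 13.2 and 27.8 CPM in naïve brain and at 0.310 to 6.53 CPM (median 2.49) in the tumors. Rfx3, a transcription factor of ciliary genes, was measured at 72.0, 27.8 and 117 CPM in naïve brain and at 5.90 to 19.4 CPM (median 11.5) in the tumors. Neither overlapped naïve brain, and the line effects of Rfx3 ran from -2.46 in 005 to -3.35 in Mut3. Ccn3, a secreted matricellular protein, was measured at 77.5, 45.5 and 64.7 CPM in naïve brain and at 1.12 to 18.6 CPM (median 3.76) in the tumors. Ccn3 had a log2 fold change of -3.59 ± 0.50. Zbtb8b, a zinc finger protein, had -3.61 ± 0.67.

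Whether a shared change had the same size in every line was tested apart from the comparison with naïve brain. Among all tested genes, 26.8% differed among the 4 lines (edgeR's quasi-likelihood test, Benjamini-Hochberg adjusted, limit 0.05). Of the shared genes, 732 of 2531 higher (28.9%) and 751 of 2715 lower (27.7%) did so, shares near that background, and the rule itself asks for all 4 lines on 1 side. Over both directions the share was 28.3%, and it was 14.97%, 17.3% and 15.7% without Mut3 replicate 1, 2 or 3. Lists differed in this respect. Of the shared members, 2 of 26 mitotic genes, 5 of 24 replication genes and 2 of 8 MHC class I genes differed among lines, beside 13 of 14 interferon genes, 10 of 12 phagocyte genes, 8 of 8 T and NK cell genes and 11 of 15 mesenchymal genes. Without 005 replicate 3, 9 of 26 mitotic, 11 of 24 replication and 4 of 8 MHC class I genes differed, as did 14 of 14 interferon and 10 of 12 phagocyte genes, beside 36.5% of all shared genes in that fit. With Mut3 left out, none of the mitotic genes, 4 of 14 interferon genes, 2 of 12 phagocyte genes and 1 of 8 T and NK cell genes differed among the remaining lines, beside 6.81% of all shared genes. The synaptic list went from 10 of 21 to none without Mut3.

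**Figure D3:**
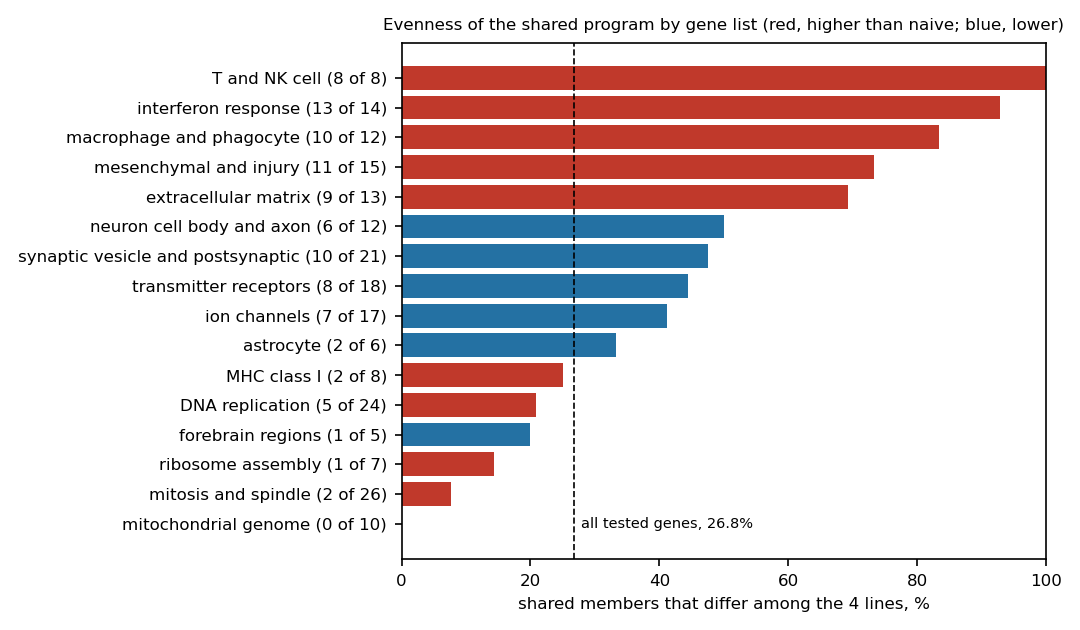
Share of a list's shared members whose 4 line effects differed (horizontal axis, %; test among lines, adjusted limit 0.05), for lists with at least 5 shared members. The dashed line is the share of all tested genes, 26.8%; the T and NK cell list stands at 8 of 8 and the mitosis list at 2 of 26.

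The 10 most even higher genes under the naming rule were Manf, Iars, Nop14, Ctla2a, Rps28, Fyb, Irf3, Prc1, Cdr2l and Dcaf13. Manf, a secreted factor of the endoplasmic reticulum stress response, was measured at 24.2, 38.0 and 39.4 CPM in naïve brain and at 50.4 to 131 CPM (median 87.0) in the tumors. Its line effects were 1.40 (CT2A), 1.40 (GL261), 1.41 (005) and 1.38 (Mut3). Fyb, an adaptor of T cells and myeloid cells, was measured at 8.34, 7.21 and 10.5 CPM in naïve brain and at 22.5 to 99.4 CPM (median 58.2) in the tumors. By line, Fyb changed by 2.73 (CT2A), 2.89 (GL261), 2.84 (005) and 2.80 (Mut3) on the log2 scale. Ctla2a, a cysteine protease inhibitor, was measured at 15.9, 17.6 and 19.7 CPM in naïve brain and at 45.0 to 209 CPM (median 127) in the tumors. Its line effects ran from 2.79 to 2.96. Rps28, a small ribosomal subunit protein, had line effects from 1.87 to 1.996.

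On the lower side the most even included Zfp609, Prkaca, Herc3, Hs6st2, Tspan33, Rhpn2, Txnrd2, Pakap and Spsb3. Zfp609, a zinc finger protein, was measured at 9.16, 8.20 and 15.1 CPM in naïve brain and at 2.36 to 5.70 CPM (median 2.94) in the tumors. By line, Zfp609 changed by -1.57 (CT2A), -1.55 (GL261), -1.63 (005) and -1.61 (Mut3) on the log2 scale, and 005 replicate 3, at 2.91 CPM, was within the range of the other tumors. Prkaca, the catalytic subunit of protein kinase A, was measured at 14.0, 18.1 and 15.1 CPM in naïve brain and at 2.57 to 11.7 CPM (median 5.58) in the tumors. Its log2 fold change was -1.42 ± 0.36, or -1.16 without naïve replicate 2, which put its adjusted p at the threshold.

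At the other end, the least even higher genes were Pvt1, C2, Lpar4, Gpnmb and Col11a1. Pvt1, a long non-coding RNA gene beside Myc, was measured at 6.51, 3.98 and 3.51 CPM in naïve brain and at 7.10 to 280.0 CPM (median 22.9) in the tumors. Its line effects were 2.51 (CT2A), 1.84 (GL261), 1.43 (005) and 5.71 (Mut3) (adjusted p = 7.61e-06), with Mut3 highest, as for Myc. C2, complement component 2, was measured at 2.44, 2.24 and 2.43 CPM in naïve brain and at 2.71 to 126 CPM (median 6.08) in the tumors. GL261 stood at 5.03 and the other lines between 1.13 and 1.30 (adjusted p = 2.05e-05). Col11a1, a fibrillar collagen chain, was measured at 2.24, 5.96 and 7.01 CPM in naïve brain and at 6.37 to 653 CPM (median 84.9) in the tumors. Mut3 and GL261 were highest, with line effects of 2.20 (CT2A), 5.17 (GL261), 0.62 (005) and 6.08 (Mut3) (adjusted p = 2.99e-05). Lpar4, a lysophosphatidic acid receptor, had line effects from 0.49 in 005 to 5.64 in GL261. The least even lower genes included Rgs17, Nptxr, Efnb2 and Cited2, and in each of these Mut3 was lowest. Nptxr, the neuronal pentraxin receptor, was measured at 201, 257 and 135 CPM in naïve brain and at 2.89 to 97.9 CPM (median 20.7) in the tumors. By line, Nptxr changed by -3.49 (CT2A), -2.82 (GL261), -1.38 (005) and -5.99 (Mut3) on the log2 scale (adjusted p = 0.000473). Efnb2, the ligand ephrin-B2, was measured at 48.6, 45.5 and 42.3 CPM in naïve brain and at 2.19 to 31.3 CPM (median 8.57) in the tumors. By line, Efnb2 changed by -2.41 (CT2A), -2.06 (GL261), -0.88 (005) and -4.08 (Mut3) on the log2 scale (adjusted p = 0.000493).

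How many single tumors followed the line means was also counted. Of the shared higher genes, 1288 (50.9%) lay above all naïve samples in 12 of 12 tumors and 886 in 11, and of the shared lower genes 1111 (40.9%) lay below in 12 of 12 and 1278 in 11. In 11 of the 12 tumors, 90.2% to 98.3% of the shared higher genes and 94.5% to 99.6% of the shared lower genes were past the naïve range. In 005 replicate 3 the shares were 72.5% and 45.3%. Among the lower genes the smallest change was in 005 for 1966 of 2715, while among the higher genes it was in 005 for 801, in Mut3 for 744, in GL261 for 675 and in CT2A for 311 of 2531.

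**Figure D4:**
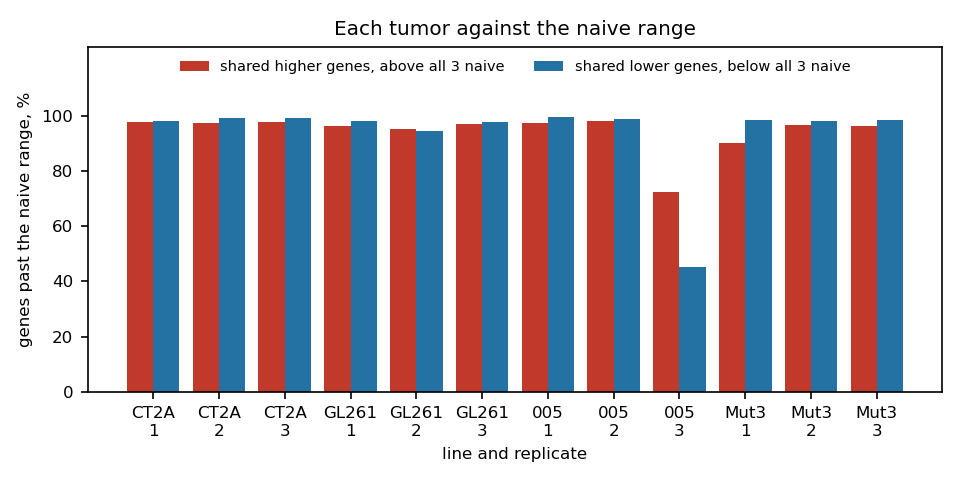
Share of the shared higher genes that lay above all 3 naïve samples (red) and of the shared lower genes that lay below them (blue) in each tumor, in %. 005 replicate 3 stands at 72.5% and 45.3%, and no other tumor is under 90.2%.

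The median log2 fold change of the shared higher genes was 2.33 (CT2A), 2.10 (GL261), 1.998 (005) and 1.98 (Mut3). That of the shared lower genes was -2.63 (CT2A), -1.74 (GL261), -1.39 (005) and -3.06 (Mut3). These medians stand on lists that the same comparison chose.

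At the limit of the rule, the values of the nearest genes were alike. The naïve samples held 4.48, 11.4 and 5.93 CPM of Tns3, and the 12 tumors 9.15 to 39.5 CPM (median 23.3). Tns3, a focal adhesion protein, was the called higher gene that met the rule by the smallest margin, because its CT2A mean of 11.44 CPM was just above naïve replicate 2 at 11.43 CPM. Pus7l, a pseudouridine synthase, missed it by the least, with a mean of 4.47 CPM in 005 against 4.48 CPM in naïve replicate 1. On the lower side Fhod3, a formin, was just inside, with a CT2A mean of 10.49 CPM under the lowest naïve value of 10.52 CPM. Map1s, a microtubule-associated protein, was just outside, with a CT2A mean of 4.86 CPM against 4.85 CPM in naïve replicate 3. The calls on all of these but Tns3 were lost when single naïve samples were left out: Fhod3 lost it without naïve replicate 2 (-1.05, adjusted p = 0.0705), Map1s without naïve replicate 1 (-1.10, adjusted p = 0.0675) or naïve replicate 2 (-0.80, adjusted p = 0.148), and Pus7l without naïve replicate 3 (1.44, adjusted p = 0.0562). A further 486 called higher and 725 called lower genes did not meet the rule on means.

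The shared genes differed in kind and length, properties the rule did not use. Processed pseudogenes were 300 of 2531 shared higher genes (11.9%) and 3 of 2715 lower (0.110%), beside 4.73% of all tested genes. Reads of a pseudogene and of its parent gene can be assigned to either, so these counts are uncertain. Of 75 ribosomal protein genes tested, a list drawn up after the data were seen, 61 were shared higher and 1 lower, with a median log2 fold change of 1.41. Protein-coding shared lower genes spanned a median of 35531 bases of the genome, shared higher ones 19377 and all tested protein-coding genes 25052. Of the protein-coding genes, 27.7% of the lower, 8.95% of the higher and 15.3% of all tested spanned more than 100000 bases.

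The motif shares were also counted over the whole sets of shared genes. TTTGAA was in 15.4% of 2020 promoters of shared higher genes, 9.67% of 2699 promoters of shared lower genes and 11.2% of the promoters of all tested genes. The ETS core CCGGAAG was in 14.0%, 6.60% and 11.8% of them, and GAAANNGAAA in 4.95%, 2.45% and 2.81%. CCAAT was in 37.4%, 32.7% and 35.1%, CACGTG (an E box) in 7.03%, 7.63% and 7.74%, TGACG (a CRE core) in 22.9%, 24.6% and 24.7%, and TATAAA in 8.07%, 7.003% and 7.201%. Promoters were found for 11916 of 17477 tested gene symbols.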

How the data were processed

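RNA of 12 tumors and 3 naïve brains was sequenced, and the authors deposited expected counts per gene (estimated, not whole) and TPM per gene for each sample. Per the labels, reads were aligned with STAR 2.4.2a to GENCODE mouse genes, and the submitters' processing notes name Salmon, DESeq2 1.18.1 and mm10. Estimated counts split reads between near-identical genes.

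Here the expected counts were rounded, filtered with edgeR's filterByExpr, scaled by TMM and fitted with edgeR 4.0.16 (R 4.3.3, quasi-likelihood) over all 15 samples, with a mean per group. The contrast was the mean of the 4 lines minus naïve brain, and an F test compared the 4 lines. Adjusted p-values follow Benjamini and Hochberg over 17481 genes. Genes were named by rank of the smallest line change (15 per direction), by evenness (10 most and 5 least even per direction), at the limit of the rule, and as examples from the lists, and genes with a mean log2 CPM under 3 in the higher group, a group mean of 3 counts or fewer, or a predicted name were not ranked. Some genes named by these rules are not reported here. The members and the gene lists were chosen with earlier results of these data known.

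The steps were tested on simulated data: of 178 changed genes tested in the comparison of 4 tumors with naïve brain, 59.6% were called, 87.9% of those with a log2 change of 3. Of 114 calls, 8 fell on unchanged genes. The simulation changed 200 of 17481 genes, each by the same amount in every line. It therefore cannot show how the scaling behaves when many more genes change, as here. The shared rule and the test among lines were not simulated. Alternatives used DESeq2 1.42.0, limma 3.58.1 on log2(TPM + 1), other filters and scalings, and each sample left out. Same-numbered samples come from different mice and were not paired.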

Additional observations from a re-analysis of the deposited data

Results flagged for a closer look

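The following shared genes changed in 1 direction in all 4 lines, yet by amounts that differed among the lines in edgeR's quasi-likelihood test (adjusted p-values over all 17481 genes, 3 mice per line). For comparison, 26.8% of all tested genes passed the same test.

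Among dividing-cell genes the adjusted p was 0.018 for Mki67, 0.0377 for Rrm2, 0.00794 for Gins2 and 0.00209 for Myc, with Mut3 highest in each. It was 0.00423 for Eda2r and 0.00489 for Trp53. Among matrix and mesenchymal genes it was 0.00127 for Col3a1, 0.000486 for Col4a1, 0.0364 for Sparc, 0.00925 for Timp1, 0.0212 for Lgals1, 0.00105 for S100a6, 0.00571 for Cd44 and 2.99e-05 for Col11a1, with 0.0361 for Vegfa and 0.0141 for Angpt2.

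Among immune genes the adjusted p was 0.0494 for H2-K1, 0.0101 for Gbp2, 0.00462 for Igtp, 0.000523 for Bst2, 2.05e-05 for C2, 0.0415 for Lgals3, 2.99e-05 for Gpnmb, 0.00675 for Lyz2, 0.00485 for Spp1, 0.0199 for P2ry12, 0.00788 for Cd8a, 0.00322 for Cd3g and 0.000992 for Gzmb. It was 7.61e-06 for Pvt1, 2.44e-05 for Lpar4, 0.031 for Tns3 and 0.0346 for Fhod3.

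Among neuronal and glial genes, where Mut3 was lowest in each, the adjusted p was 0.0289 for Snap25, 0.0203 for Gad1, 0.0213 for Gria2, 0.00898 for Grin2b, 0.00619 for Scn1a, 0.0308 for Rbfox3, 0.0123 for Nefl, 0.00283 for Tubb3, 0.0069 for Arc, 0.0389 for Slc1a2, 0.0322 for Glul, 0.0268 for Slc30a3, 0.000473 for Nptxr and 0.000493 for Efnb2. With Mut3 left out, 6.81% of the shared genes differed among the other lines.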

How the results depend on the processing

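Shared genes numbered 2531 higher and 2715 lower. Requiring 10 counts in every sample tests fewer genes and gave 1417 genes called higher, 1780 called lower, 1211 shared higher and 1474 shared lower. With limma on log2(TPM + 1), 909 were called higher and 643 shared higher, and with 2 groups 2269 were called lower; the causes were not tested. An absolute log2 fold change of 2 left 1570 called higher, 1867 called lower, 1382 shared higher and 1596 shared lower, and asking for 12 of 12 tumors left 1288 and 1111. Leaving out 1 library gave 2464 to 3223 called higher, 2399 to 4170 called lower, 2276 to 2732 shared higher, 2218 to 3273 shared lower, and 14.97% to 36.9% of shared genes that differed among lines. That share was 6.81% with Mut3 left out.

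Same-numbered samples share only a number: their deviations correlated between -0.33 and 0.26, over 0.1 in 1 of 30 pairs, and 3 of 15 samples correlated best with their own number. With the replicate block, 2911 genes were called higher and 3275 lower, and 18.1% of shared genes differed among lines.

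Of 3097 values of 112 named shared genes, 3046 kept direction and call, 51 lost the call and 0 reversed. Counted by gene, 82 of the 112 kept the call under every alternative. With limma on log2(TPM + 1) alone, 21 lost it, among them Sparc, Gfap, Nf1 and Vwf. Among genes not shared, direction reversed on the TPM scale for Pola1 (-0.48), Pole (-0.26), E2f1 (-0.21), Col1a1 (-0.11) and Psmb10 (-0.46), for Psmb10 with GL261 left out (-0.0055), and for Cd4 without naïve replicate 2 (0.22, the other samples left out in turn giving -2.35 at the lowest). The median of all tested genes moved by over 0.1 to 0.16 with mitochondrial genes out of the scaling, 0.13 with 2 groups, 0.37 without a filter, 0.23 without naïve replicate 2 and 0.17 with 005 left out. Naïve libraries were the shallowest, which limits genes low in naïve brain.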

Other observations

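In the tumors, 128 shared higher genes had no count in any naïve library. Of the 826 processed pseudogenes tested, 36.3% were shared higher, and their median log2 fold change was 1.33, on counts that can belong to their parent genes. Of the shared genes, 1803 higher and 1905 lower ones had a log2 change of at least 1 in each of the 4 lines.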
